A study of Mus musculus with 12 samples.

Results

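The lincRNA regions of mouse chromosome 8 on this array are stretches of the genome, named by position in the mm9 build, for which the array design carries probes against long intergenic non-coding RNA. The members were all non-control probes whose name gave a position on chromosome 8 and the letter F or R, taken here as the strand letter of the design. There were 1021 such probes in 217 regions, of 16181 lincRNA probes in 3540 regions on all chromosomes and 55681 non-control probes in all. The first region began at chr8:4325209 and the last ended at chr8:131182125. No probe sequence is shown, because the tables used here hold none.

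Global gene expression was measured with 1 one-colour array for each of 12 mouse iPS cell clones. Of the clones, 6 were Aid+/+, made up of 967B2, 967B4 and 967B6 (series 967B) and 979B1, 979B3 and 979B4 (series 979B). The other 6 were Aid-/-, made up of 979F1, 979F2 and 979F3 (series 979F) and 981E1, 981E4 and 981E5 (series 981E1/4/5). The study asked whether the Aid-/- genotype changes iPS cells. All the clones were male, came from fibroblasts of a mixed C57BL6, DBA and 129S4 background, carried a Nanog-GFP reporter, had been reprogrammed with retroviral factors, and were at passage 6 on gelatin under puromycin. The Aid-/- fibroblasts came from mice with both Aid alleles disrupted in every cell, so the deletion is not specific to a cell type. Each clone is a line grown from 1 colony, and p-values below measure the spread between clones. A series is a set of 3 clones whose names share a number and a letter. If this number is that of a reprogramming experiment, 979B and 979F shared one and 967B came from another. The number of 981E1/4/5 is not among the experiments the study lists, so the origin of those clones is uncertain. Slide 1 held the arrays of 967B, slide 2 those of 979F, and slide 3 those of 979B and 981E1/4/5, so only slide 3 held both genotypes.

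Long intergenic non-coding RNAs are transcripts from between the protein-coding genes, many of them spliced and polyadenylated like messenger RNA. Some act on chromatin or on neighbouring genes and others have no known role. In pluripotent stem cells many are made under the control of the same factors that keep the cells undifferentiated, and their levels tend to be lower and more variable between lines than those of messenger RNA.

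A probe is called detected below where the scanner software marked it well above background. Values are log2 signals, scaled so that 0 is the 75th percentile of an array, and the medians of the arrays lay between -3.78 and -3.59, so a value of -3 is above the median probe of every array and a value of 3 is bright. The arrays had between 31698 and 33662 of the 55681 probes detected. All 7 pluripotency markers (Nanog, Pou5f1, Sox2, Eras, Dppa5a, Zfp42 and Esrrb) were detected on all 12 arrays. Of 6 fibroblast markers (Col1a1, Col1a2, Col3a1, Thy1, Postn and Fbn1), 3 were detected on all 12 arrays and none was at background on every array. Their summed signal on the log2 scale was 0.80 in 967B4, between 2.64 and 3.92 in the other Aid+/+ clones and between 3.58 and 4.90 in the Aid-/- clones. Its part in the results below was not tested.

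The 217 regions were between 77 and 360001 bases long, with a median of 6988 bases, and held between 1 and 20 probes each, with a median of 3. Of these regions, 144 overlapped another one, so that the 217 regions formed 127 separate loci, the most crowded of which held 12 regions. Probes of overlapping regions can read the same transcript and are not independent. Probes of both letters were present in 72 regions, F probes alone in 66 and R probes alone in 79.

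About as many chromosome 8 probes were detected everywhere as were detected nowhere. Of the 1021 probes, 365 (35.7%) were detected on all 12 arrays, 278 (27.2%) on some arrays and 378 (37.0%) on none. On the other chromosomes the shares of 15160 lincRNA probes were 34.1%, 25.9% and 39.9%, so chromosome 8 was close to the rest. In bulk samples such as these, fewer cells of a type and less RNA per cell cannot be told apart. The R probes were detected on all arrays in 36.3% of cases and the F probes in 35.2%. At least 1 probe was detected on all 12 arrays in 139 regions, and every probe was in 38 regions. In 57 regions probes were detected on some arrays and none on all 12, and in 21 regions no probe was detected on any array. Of the 72 regions with probes of both letters, 24 had both letters detected on all 12 arrays, 14 the F letter alone, 21 the R letter alone and 13 neither.

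**Figure D1:**
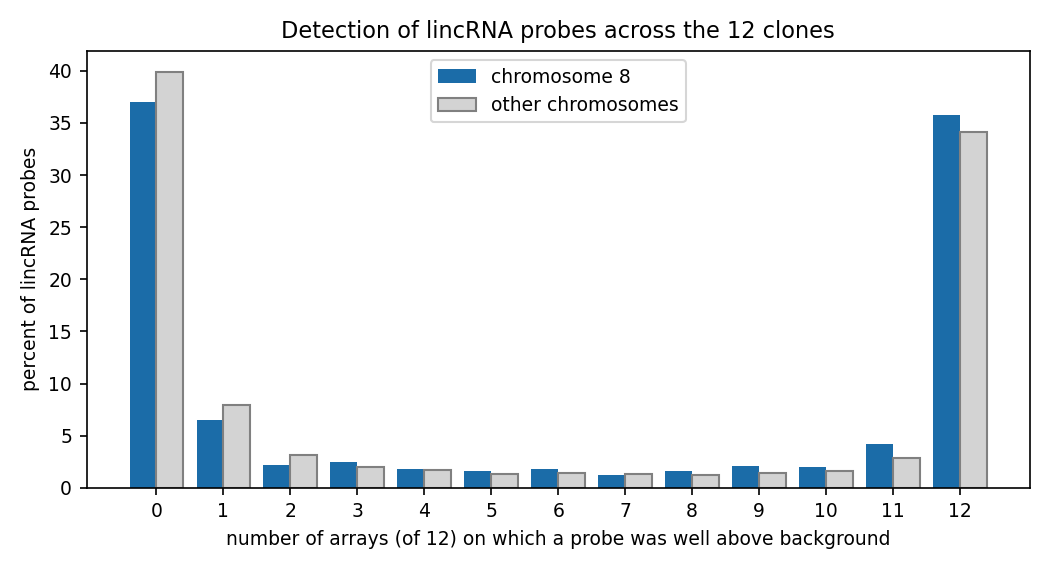
The percent of lincRNA probes (vertical axis) detected on 0 to 12 arrays (horizontal axis), for the 1021 probes of chromosome 8 (blue) and the 15160 of the other chromosomes (grey). Both sets pile up at the ends, with 37.0% of chromosome 8 probes detected on no array and 35.7% on all 12.

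By clone, the number of detected chromosome 8 probes ran from 440 of 1021 (43.1%) in 967B2 to 517 (50.6%) in both 967B4 and 981E5. These shares followed those of the other chromosomes, which were 40.1%, 45.8% and 44.1% in the same clones. In 981E5 the chromosome 8 share was 6.57 percentage points above that of the other chromosomes, and in the other 11 clones it was between 2.68 and 4.87 points above. Probes detected in 1 clone alone numbered 66 (6.46%), with 11 of them in 981E5, 10 in 979F1, and 8 each in 967B4 and 979F2. On the other chromosomes 7.94% of the lincRNA probes were detected in 1 clone alone. By clone this was 0.752% in 981E5, 1.31% in 979F1, 0.805% in 967B4 and 0.587% in 979F2.

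The regions with the most probes detected on all 12 arrays are shown because several probes measured each of them. The region chr8:72663625-72673010 had 14 of its 18 probes detected on all 12 arrays, 7 of each letter. In chr8:91569369-91594119 the number was 12 of 20, of which 4 were F and 8 were R. The region chr8:119732348-119749198 also had 12 of 20, but here 9 were F and 3 were R, and 5 of the 10 R probes were at background everywhere. None of these regions held a probe that passed the tests of genotype or clone series given below. Their probes detected on all 12 arrays differed little between the genotypes. The log2 fold changes (Aid-/- minus Aid+/+) of these probes lay between -0.26 and 0.46 in the first, between -0.46 and 0.15 in the second and between -0.48 and 0.33 in the third.

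The next regions by this count held 7 probes each that were detected on all 12 arrays. In chr8:18587198-18592948 all 5 R probes were among them but 2 of the 5 F probes. In chr8:40100925-40196350 the lean was the other way, with all 5 F probes and 2 of the 5 R probes. The region chr8:44232164-44267061 had 5 of 5 R probes and 2 of 3 F probes. Among the regions with both letters detected on all arrays, the first 6 along the chromosome included 2 of these and chr8:19678750-20038750, chr8:26212577-26218527, chr8:35650475-35664200 and chr8:40238025-40264250. In chr8:26212577-26218527 only 1 of 5 probes of each letter was detected on all 12 arrays, and in chr8:35650475-35664200 there were 1 of 2 F probes and 3 of 3 R probes. Both letters of a region did not always move together in a clone: in 981E5 the 5 R probes of chr8:18587198-18592948 had a median of 0.76 above the median clone and the 2 F probes a median of -0.37.

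Clone 981E5 stood apart from the other 11 over the chromosome. Over the 365 probes detected on all 12 arrays, each clone was set against the median of the 12 clones, probe by probe, as a log2 difference. This was known of these data before the regions were chosen, so it is given for every clone without a test. The median difference was 0.31 in 981E5, 0.11 in 967B4 and between -0.11 and 0.05 in the other 10 clones. The middle 50% of the probes of 981E5 lay between -0.04 and 0.72. Of the 365 probes, 71.5% lay above the median clone in 981E5, against between 29.3% and 65.5% in the other clones. Clone 981E5 was the highest of the 12 for 157 probes (43.0%) and over 2-fold above the median clone for 53 (14.5%).

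The shift was not seen on the other chromosomes. Over 5174 lincRNA probes there the median difference of 981E5 was 0.01, and it was the highest clone for 18.0% and over 2-fold above for 5.16%. On the other chromosomes the medians of single clones ran from -0.11 to 0.14, and in 981E5 from -0.05 to 0.10. Probes of annotated genes on chromosome 8 were read on the same arrays and from the same RNA, so they are no independent check of the known rise. Over 909 such probes detected on all 12 arrays the median difference was 0.34 in 981E5 and between -0.05 and 0.03 in the other clones. In 10 successive groups of these gene probes along the chromosome, the median in 981E5 ran from 0.19 to 0.48.

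**Figure D2:**
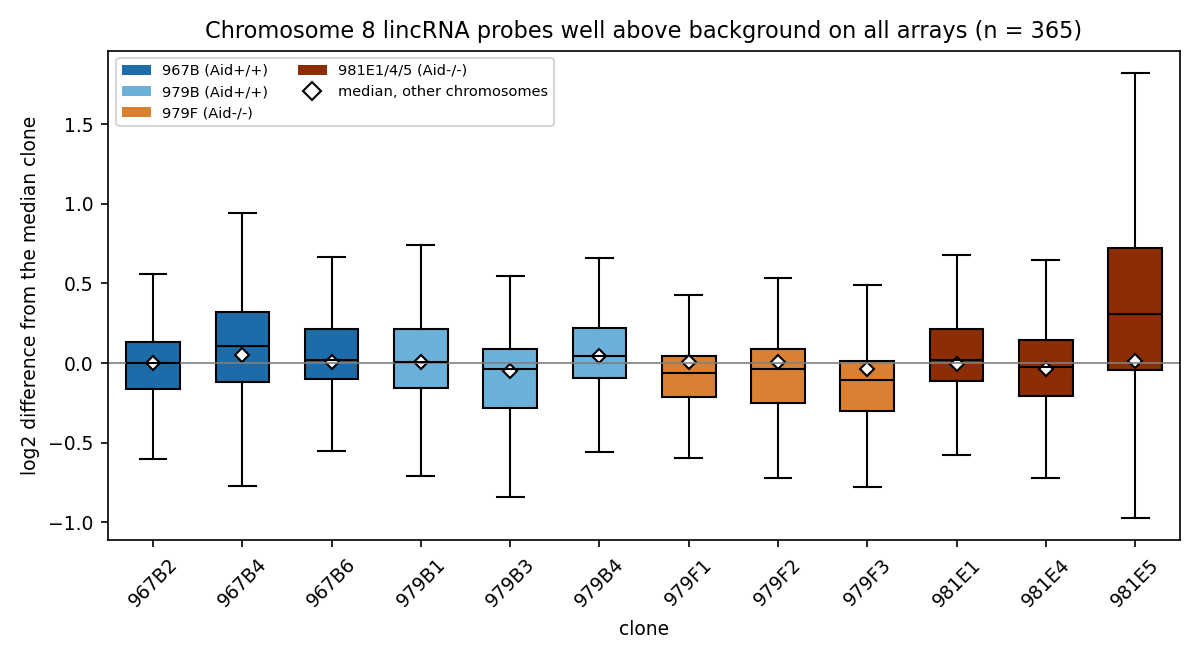
The log2 difference from the median clone (vertical axis) of the 365 chromosome 8 lincRNA probes detected on all 12 arrays, as a box per clone (median, quartiles, whiskers to the last probe within 1.5 times the box, outlying probes not drawn), coloured by clone series. White diamonds mark the median of 5174 lincRNA probes on other chromosomes, and the box of 981E5 has its median at 0.31 with its diamond at 0.01.

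Over the lincRNA probes the shift of 981E5 was uneven along the chromosome, in intervals that held between 1 and 14 loci each. In intervals of 10 Mb, the first 3 probes had a median of 1.41, the 20 probes between 50 and 60 Mb had 0.77 and all 20 lay above the median clone. The medians were 0.62 over 37 probes between 10 and 20 Mb, 0.55 over 47 between 40 and 50, and 0.48 over 43 between 110 and 120. They were lower over 27 probes between 20 and 30 Mb (0.12), over 49 between 70 and 80 (0.12) and over the 42 from 120 Mb on (-0.01). The gene probes did not show such a low end: the last of their 10 groups had a median of 0.35 in 981E5. Those groups follow gene order and do not match the intervals. In the interval between 60 and 70 Mb, 979B1 had a higher median than 981E5, 0.55 against 0.35 over 10 probes, and in those between 20 and 30 Mb (967B4, 0.16) and from 120 Mb on (967B4, 0.07) it was also passed by another clone.

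The size of the shift depended on how the probes were weighted. With 1 mean per region and letter, 108 of 163 such sets (66.3%) lay above the median clone in 981E5 and the median was 0.20. With 1 mean per locus, 58 of 91 loci (63.7%) lay above and the median was 0.16, and in 967B4 58 loci also lay above, with a median of 0.12. Loci with 1 detected probe had a median of -0.03 in 981E5 (31 loci), those with 2 or 3 had 0.60 (24 loci) and those with 4 or more had 0.30 (36 loci). Clone 981E5 was the highest of the 12 clones at 32 of 91 loci, against 11 or fewer for any other clone. It was more than 0.5 above the median clone at 28 loci (30.8%), compared with 12 in 967B4 and 10 in 979B1, and with 11.1% of 1346 loci on other chromosomes in 981E5. Within a set of 2 or more probes of 1 region and letter, every probe lay above the median clone in 57 of 96 sets, every probe lay at or below it in 18, and 21 were split. The median was 0.33 over F probes and 0.30 over R probes, and between 0.25 and 0.44 in the 4 groups of equal size by mean signal.

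**Figure D3:**
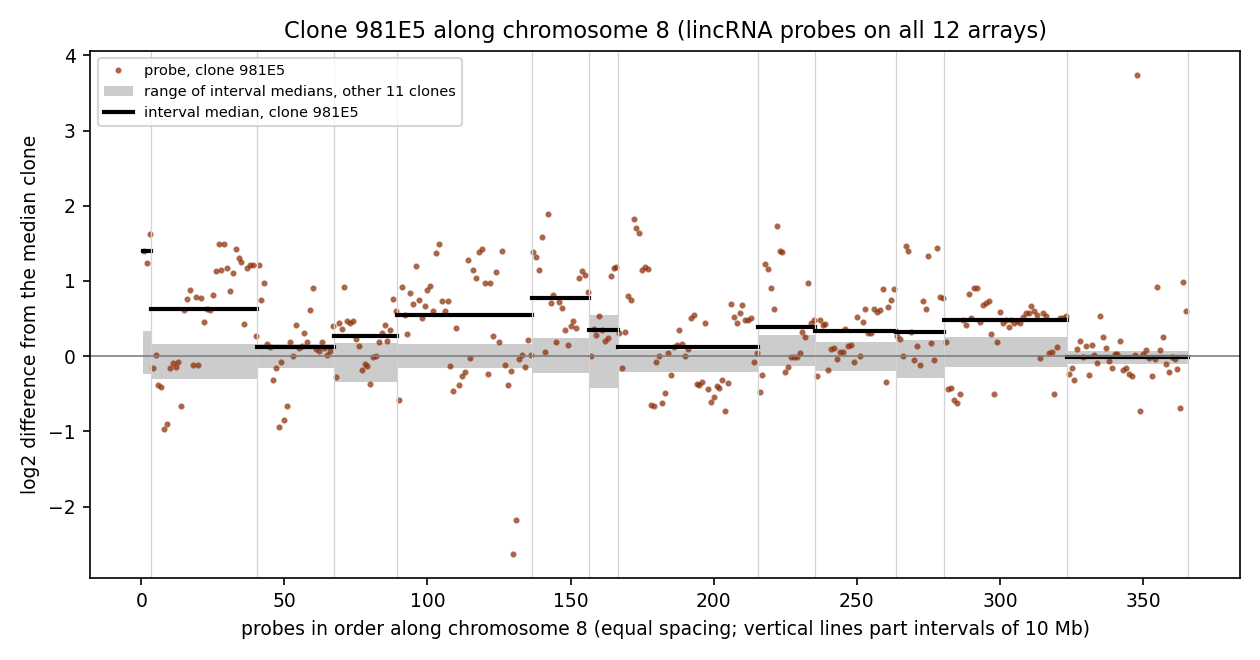
The log2 difference of clone 981E5 from the median clone (vertical axis) for the 365 probes in their order along chromosome 8 (horizontal axis, equal spacing). Black bars give the median of 981E5 in each interval of 10 Mb and grey bands the range of the medians of the other 11 clones, and the black bar lies above the band except in the intervals from 20 to 30 Mb (0.12), from 60 to 70 Mb (0.35) and from 120 Mb on (-0.01).

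Of the 365 probes, the 8 with the largest rise in 981E5 came from few regions and are described without a test, since they were chosen for it. The first was A_30_P01027500, an R probe of chr8:124355710-124401160. It read 1.18 in 981E5, 13.4-fold above the median clone, -0.51 in 967B4, and between -4.15 and -1.13 in the other 10 clones. Of the same region and letter, A_30_P01025936 read 0.72, A_30_P01028489 read 0.01 and A_30_P01019687 read -0.69 in 981E5, and each was at its highest there and second highest in 967B4. So were the values of A_30_P01024275, an R probe of the overlapping region chr8:124397412-124398022, with 0.40 in 981E5 and -1.47 in 967B4. The last R probe of the locus, A_30_P01017696, read -3.95 in 981E5, 1.76-fold above the median clone, and was next highest in 967B6 (-4.39). These 5 probes were named after their values were seen. All 6 R probes of the locus were thus highest in 981E5, with 967B4 next on 5 of them.

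The region chr8:72076364-72077503 was among the 8 with all 3 of its R probes. A_30_P01025166 read -0.49 in 981E5 and between -2.82 and -1.88 in the other 11 clones. A_30_P01030794 read -0.09 against -2.32 to -1.43, and A_30_P01032206 read -0.50 against -2.60 to -1.84. In each of them 981E5 was between 3.12-fold and 3.53-fold above the median clone and did not overlap any other clone. A_30_P01020098, an F probe of chr8:86705694-86711244, read -0.97 in 981E5 and between -3.22 and -1.57 elsewhere.

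The others were F probes near the middle and the start of the chromosome. The second largest rise of the 365 probes, 3.70-fold, was that of A_30_P01031850, the only probe of chr8:57994310-57999085. It read -0.89 in 981E5 and between -3.45 and -2.04 elsewhere. A_30_P01018867, of chr8:57977383-57985712, read -0.99 against -3.07 to -1.80. A_30_P01030249, of the first region, chr8:4325209-4348788, read -1.63 against -3.61 to -2.92. For all 8 probes 981E5 was the highest of the 12 clones, by between 3.00-fold and 13.4-fold over the median clone.

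A few probes fell in the same clone. The lowest were both R probes of chr8:48480224-48480698. A_30_P01019105 read -3.61 in 981E5, -2.28 in 981E4, -1.69 in 981E1, -1.58 in 979B1, -1.35 in 979B3 and between -1.04 and -0.55 in the other 7 clones. A_30_P01027337 read -3.71, -2.88 and -2.18 in the same 981E1/4/5 clones, -2.21 in 979B1 and between -1.76 and -1.27 in the others. The low values were thus shared in part by the series 981E1/4/5, with 981E5 the lowest. The third was A_30_P01029524, an R probe of chr8:12535648-12544923, at -3.90 in 981E5 and between -3.28 and -2.30 in the other clones. A_30_P01023279, an R probe of chr8:26343277-26352902, read -4.24 in 981E5 but was lower still in 981E4, at -4.46, and in 967B6, at -4.37.

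The comparison of genotypes gave no called probe on chromosome 8. Under limma, with an adjusted p under 0.05 and a fold change over 2, 0 of 1021 probes passed, and 0 passed the adjusted p alone. Over all 55681 probes 0.0341% passed both thresholds and 0.0611% the adjusted p alone. An unadjusted p under 0.05 was reached by 71 of the 1021 (6.95%) and by 13.6% of all probes. The methods' t-test, with both thresholds, also called 0 of the 1021. The smallest adjusted p was 0.100. None of the probes the study listed as changed was a member.

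The median log2 fold change (Aid-/- minus Aid+/+) over the 365 probes was -0.01, and without 981E5 it was -0.06. The corresponding medians over the 5174 lincRNA probes of other chromosomes were -0.03 and -0.04. The share of the 365 that was higher in Aid-/- clones was 47.7% with 981E5 and 36.7% without it. It was 44.9% and 43.9% over those lincRNA probes of other chromosomes, and 39.8% and 40.9% over all probes detected on all 12 arrays. Leaving out any 1 clone, 981E5 included, gave 0 called probes. With slide as a fixed block the count was 43, of which 32 were higher in Aid-/- clones. The same fit called 1185 probes over the whole array, whose directions are not given here. In that fit the genotype is estimated within slide 3 alone, as 981E1/4/5 against 979B, and series and genotype cannot be told apart there. With slide or clone series as a random block it was 0.

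The probes nearest to the threshold were chosen after their values were seen. A_30_P01028990, an R probe of chr8:125031410-125075960, had a lowest, median and highest value of -2.75, -2.21 and -1.95 in Aid+/+ clones and of -1.90, -1.60 and -1.0 in Aid-/- clones. The groups did not overlap, and the log2 fold change was 0.77 (SE 0.17, n = 6 and 6, limma adjusted p = 0.100). It passed the adjusted p with normexp background correction (0.050), among probes detected on all arrays (0.0428) and with slide as a fixed block (0.00859), and its adjusted p was at most 0.192 under the other settings. A_30_P01027422, an F probe of chr8:71891610-71924216, read -3.37, -3.28 and -3.20 in Aid+/+ clones and -3.72, -3.56 and -3.51 in Aid-/- clones. Its log2 fold change was -0.29 (SE 0.07, limma adjusted p = 0.124), and it passed under the methods' t-test (adjusted p = 0.0282, range 0.0282 to 0.256 over the settings tried).

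The difference of 979F from 979B was set against that of 981E1/4/5 from 967B. The first pair shares the number in its names but not a slide, and the second shares neither, so slide cannot be told apart from genotype in both pairs, nor experiment in the second. In limma 0 of 1021 probes differed at an adjusted p under 0.05, against 0.106% of all probes, and 10.5% did at an unadjusted p under 0.05, against 9.85% of all probes. Within these pairs, 4 probes differed in 979F against 979B (0.392%, against 0.614% of all probes). In 981E1/4/5 against 967B there were 2 (0.196%, against 0.196% of all). Between the Aid+/+ series 979B and 967B there were 8 (0.784%, against 0.711% of all).

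More probes passed the test of clone series than that of genotype, on chromosome 8 and over all probes. The counts are not on the same scale, since differences between series widen the residual spread of the genotype fit. Clones of a series also shared a slide. In the limma F test of 4 series means, 55 of 1021 probes (5.39%) passed an adjusted p under 0.05, in 35 regions and 26 loci, against 4.16% of all probes. Of these, 32 were detected on all 12 arrays and 5 on none, and the levels of the latter are not measured. Without 981E5 the test called 41 probes, against 2.54% of all probes, and 35 of the 55 were among them. The count moved with single clones. It was 92 without 967B4, 26 without 967B6, 22 without 979F1 or 979F3, 24 without 979F2 or 979B1, 21 without 979B3 and 32 without 979B4. The share of all probes called without each of these clones is not given here.

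Series 981E1/4/5 was the highest of the 4 for 31 of the 55 probes, and series 979B and 979F were the lowest for 21 and 17. The mean of 981E1/4/5 includes clone 981E5, whose rise was known before the regions were chosen. The series orders counted here were not recounted without 981E5, so the part of that clone in them was not tested. In 31 of the 55 the means of 967B and 981E1/4/5 both lay above those of 979B and 979F, and in 13 both lay below. The other 11 had another order, 3 of them with both Aid-/- series above both Aid+/+ series. Over all 2318 called probes the same 2 orders made up 33.9% and 23.4%, compared with 56.4% and 23.6% of the 55. These shares count probes of 1 locus separately, though they are not independent. Of the 55, 11 came from 1 locus and 5 from another, and no share per locus is given. The most frequent order joins an Aid+/+ series with an Aid-/- series. It sets both series numbered 979 below the other 2, and follows neither the genotypes nor the slides. The part of the experiment in it was not tested.

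In the contrast of 981E1/4/5 with 979B, on 1 slide, 52 of 1021 probes passed (5.09%, against 4.13% of all probes). Of these, 38 were higher in 981E1/4/5 (3.72%, against 2.28% of all) and 14 lower (1.37%, against 1.85%). Of 979F and 981E1/4/5, both Aid-/-, 56 probes differed (5.48%, against 3.02% of all). Of these, 13 were higher in 979F (1.27%, against 1.36%) and 43 lower (4.21%, against 1.66%). Without 981E5 the first contrast gave 24 higher (2.35%, against 1.14% of all) and 11 lower (1.08%, against 0.954%). The second gave 3 higher (0.294%, against 0.35%) and 9 lower (0.881%, against 0.544%). The direction of the first shifted with the scaling, from 73.1% of its called probes higher in 981E1/4/5 to 60.9% with normexp and 80.0% with the percentile taken over detected probes. Both counts moved with single clones, on chromosome 8 and over all probes. The first was 83 without 967B4, 25 without 979B1, 22 without 979B3 and 33 without 979B4. Over all probes it was 2299, and 4225, 967, 748 and 1056 without these clones. The second was 10, 8 and 7 without 979F1, 979F2 and 979F3, 12 without 981E5, 32 without 981E4, 30 without 979B3, 32 without 979B4 and 33 without 967B6. Over all probes it was 1684, and 605, 321 and 263 without 979F1, 979F2 and 979F3, and 498 without 981E5. It was 1016 without 981E4, 943 without 979B3, 1112 without 979B4 and 1102 without 967B6.

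**Figure D4:**
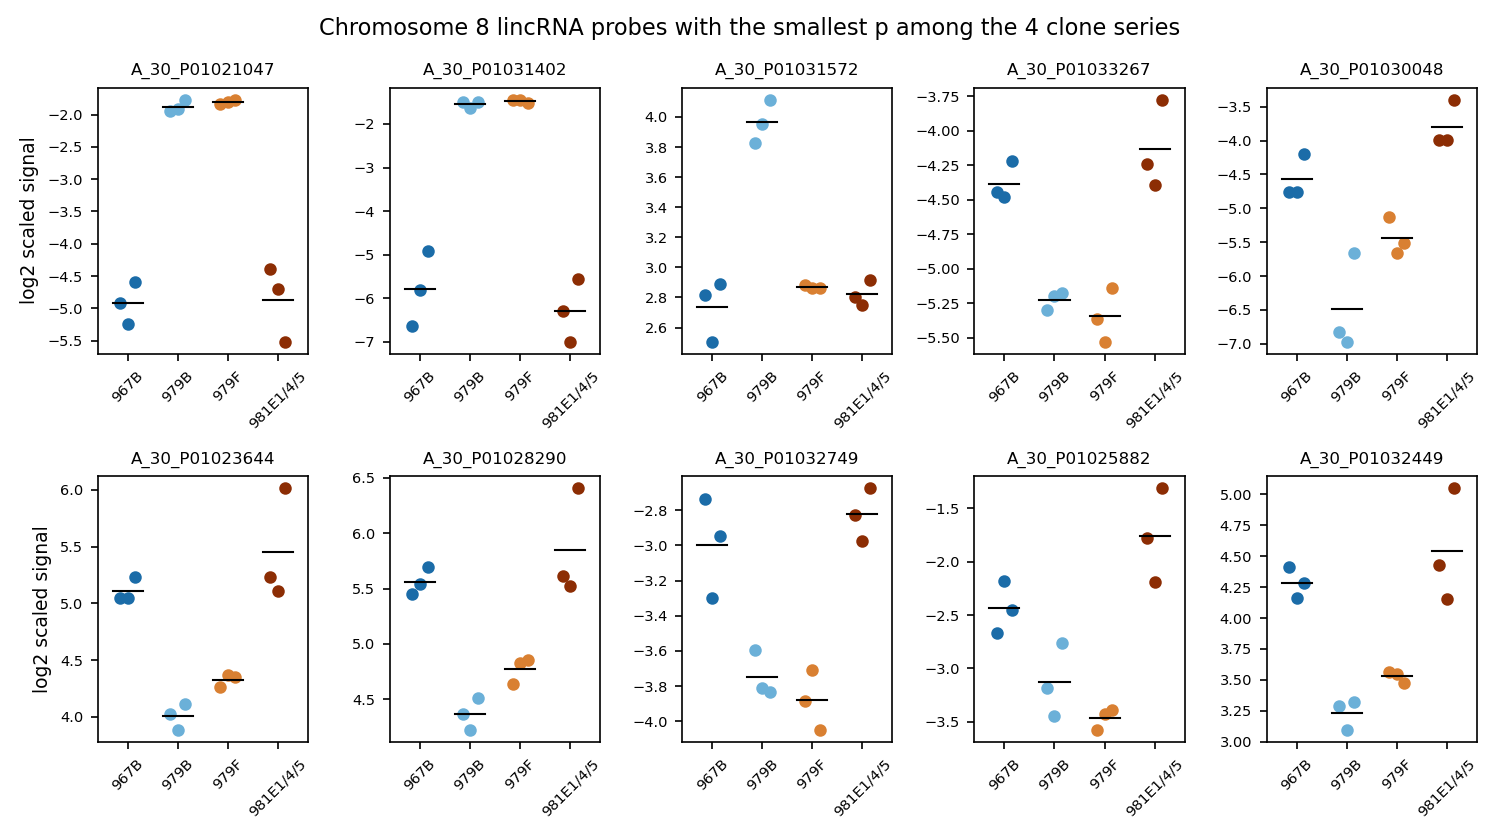
The log2 signal (vertical axis, a scale per panel) of the 10 probes with the smallest p in the F test among the clone series, 1 dot per clone and a bar at each series mean (n = 3). In A_30_P01021047 and A_30_P01031402 the clones of 979B and 979F lie above those of 967B and 981E1/4/5, A_30_P01031572 is high in 979B alone, and in the other 7 panels the means of 967B and 981E1/4/5 lie above those of 979B and 979F.

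The smallest p belonged to both F probes of chr8:124364048-124365705, a region that lies inside chr8:124355710-124401160. A_30_P01021047 read -1.95, -1.91 and -1.77 in the 979B clones, -1.84, -1.81 and -1.78 in the 979F clones, between -5.24 and -4.59 in the 967B clones and between -5.52 and -4.39 in the 981E1/4/5 clones. It was detected in all 6 clones of the first 2 series, and in 1 clone of 967B and 2 of 981E1/4/5. The 2 pairs of series did not overlap (limma F test, adjusted p = 0.000341, range 6.46e-07 to 0.00207 over the settings tried). A_30_P01031402 read between -1.63 and -1.44 in the 979B and 979F clones and was not well above background in any clone of 967B or 981E1/4/5. It was at least 18.5-fold higher in 979F than in those series (adjusted p = 0.000412). A bound of this kind sets the mean of the bright series against, on each array, the lowest signal of a detected probe or the probe's own value where that is higher. That signal is no fixed detection limit. In 967B6, A_30_P01031402 was not detected at -4.91, above the lowest signal of a detected probe there (-5.55). Folds written as at least, here and below, hold against the level so chosen and are no strict limits.

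These 2 F probes thus read another pattern than the R probes of the same locus. The R probes A_30_P01027500, A_30_P01025936, A_30_P01028489 and A_30_P01024275 were highest in 981E5 and 967B4 and lowest in the 979F clones. The last F probe of the locus was detected on no array. The pattern was not one of letter, since the other 4 detected F probes, all of chr8:124355710-124401160, did not share it. Of these, A_30_P01018266 was detected on 10 arrays, with series means of -4.18 (967B), -4.34 (981E1/4/5), -4.79 (979B) and -4.46 (979F), and was highest in 981E5 (-3.53), and the others were detected on 5 arrays or fewer. None of the 6 R probes passed the F test, with adjusted p between 0.0781 (A_30_P01025936) and 0.353 (A_30_P01017696).

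**Figure D5:**
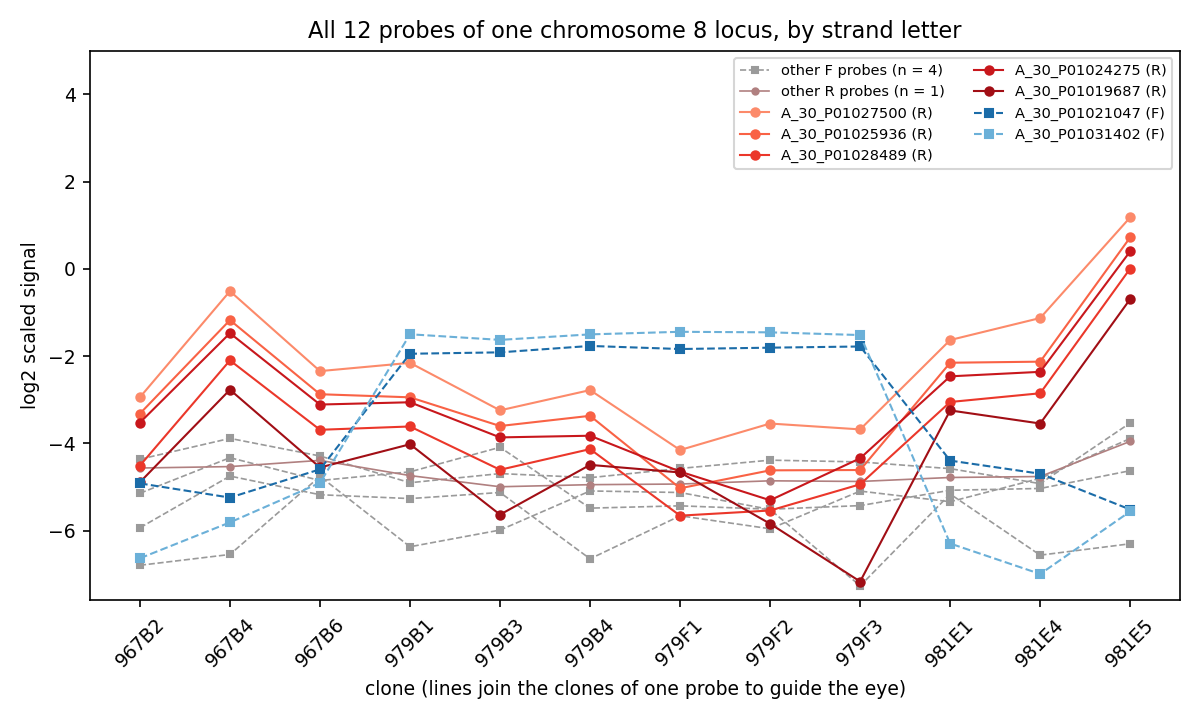
The log2 signal (vertical axis) in each clone (horizontal axis) of 12 of the 13 probes of 1 locus on chromosome 8. The probe left out, an F probe, was detected on no array. The 5 R probes in red circles peak in 981E5 and 967B4, the 2 F probes in blue squares are high in the 6 clones of 979B and 979F and near or at background in the other 6, and the 1 other R probe and 4 other F probes (muted) stay below -3.

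A cluster of 12 overlapping regions between chr8:19678750 and chr8:20038750 showed the order that was most frequent. Of its 38 probes, 21 were detected on all 12 arrays, 981E5 was the highest clone on all 21, and 11 of the 38 passed the F test. These 11 are among the probes from which that order was counted, so the cluster is no separate evidence for it. In 18 of the 21, the means of 967B and 981E1/4/5 both lay above those of 979B and 979F. No share over other probes is given for this count, and it was not repeated without 981E5. The 3 F probes of chr8:19792940-19798868 were bright. A_30_P01023644 read 5.05, 5.04 and 5.23 in the 967B clones, 5.23, 5.11 and 6.02 in the 981E1/4/5 clones, 4.03, 3.88 and 4.12 in the 979B clones and 4.26, 4.37 and 4.35 in the 979F clones. The 2 pairs of series did not overlap, with or without 981E5 (limma F test, adjusted p = 0.0146, and 0.00316 without 981E5). A_30_P01028290 had the same order, with series means of 5.56 (967B), 5.85 (981E1/4/5), 4.37 (979B) and 4.77 (979F), at an adjusted p of 0.0146. A_30_P01033267, an R probe of chr8:19678750-20038750, was detected in all the clones of 967B and 981E1/4/5, in 1 clone of 979F and in none of 979B, and was at least 2.13-fold higher in 981E1/4/5 than in 979B (adjusted p = 0.00985).

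The probes that follow were also among those from which the order was counted. It was seen at chr8:72105642-72105922, where all 3 R probes passed. A_30_P01032449 read 4.41, 4.16 and 4.28 in 967B, 4.43, 4.15 and 5.05 in 981E1/4/5, 3.29, 3.1 and 3.33 in 979B, and 3.56, 3.55 and 3.48 in 979F (limma F test, adjusted p = 0.0167). No clone of 967B or 981E1/4/5 overlapped one of 979B or 979F. At chr8:86705694-86711244 all 3 F probes passed, and A_30_P01025882 had series means of -2.43 ± 0.24 (967B), -1.76 ± 0.44 (981E1/4/5), -3.13 ± 0.35 (979B) and -3.47 ± 0.10 (979F) (SD, n = 3, adjusted p = 0.0158). A_30_P01032749, an R probe of chr8:108153471-108159672, had means of -3.0 ± 0.28, -2.82 ± 0.15, -3.75 ± 0.13 and -3.88 ± 0.17 in the same series (adjusted p = 0.0147). A_30_P01030048, an R probe of chr8:74348539-74378200, was detected in all 3 clones of 981E1/4/5 and 2 of 967B and in none of the other 6, and was at least 3.12-fold higher in 981E1/4/5 (adjusted p = 0.0114).

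One probe was set apart by series 979B. A_30_P01031572, an F probe of chr8:74820025-74833350, read 3.83, 3.95 and 4.12 in the 979B clones and between 2.51 and 2.91 in the other 9. The log2 difference was -1.09 in 979F against 979B (SE 0.13, limma adjusted p = 0.00988) and the F test gave an adjusted p of 0.00277. The other F probe of the region, A_30_P01027755, read between 2.58 and 2.77 in 979B and between 2.53 and 2.83 elsewhere, so the 2 probes of this region disagreed. It was named after its values were seen.

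A small set was detected by whole series. On chromosome 8, 9 of 1021 probes (0.881%) were detected in every clone of 1, 2 or 3 series and in no clone of the others, compared with 0.422% of the lincRNA probes of other chromosomes and 0.298% of all probes. The 8 with the widest range of series means are given here with A_30_P01031402 among them. They were chosen by differences between series, so their F test p-values are no separate support for such differences. A_30_P01023409, an R probe of chr8:26347473-26348052, was detected in 979B and 979F alone and was at least 3.39-fold higher in 979F by the series mean (limma F test, adjusted p = 0.0344, range 0.0222 to 0.132 over the settings tried). That mean leaned on 979F2, at -2.53, with 979F1 at -4.05 and 979F3 at -4.42. A_30_P01023005, an R probe of chr8:85952719-85958369, was at background in 967B alone and was at least 5.11-fold higher in 979F (adjusted p = 0.0300, range 0.00473 to 0.0835). A_30_P01022121, an R probe of chr8:42462791-42466106, had the opposite set, being detected in 967B and 981E1/4/5 alone and at least 2.98-fold higher in 981E1/4/5 (adjusted p = 0.0194, range 0.0143 to 0.0931).

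A_30_P01022148, an R probe of chr8:48476637-48492537, was at background in 981E1/4/5 alone and at least 3.24-fold higher in 979F (limma F test, adjusted p = 0.0320, range 0.0201 to 0.0881). This region holds chr8:48480224-48480698, whose R probes were lowest in 981E1/4/5. A_30_P01029933, an R probe of chr8:94841965-94881130, and A_30_P01030783, an F probe of chr8:37590189-37590632, were detected in 979B alone, at least 1.89-fold and 1.80-fold higher there (adjusted p = 0.0387, range 0.0158 to 0.107, and 0.0492, range 0.0259 to 0.210). The call was lost in 13 settings for A_30_P01030783, in 11 for A_30_P01029933, in 8 each for A_30_P01023409 and A_30_P01022148, in 7 for A_30_P01023005 and in 3 for A_30_P01022121. A_30_P01030607, an R probe of chr8:19783770-19784669, was detected in 967B alone at a level near background, and did not pass (adjusted p = 0.0858).

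A single value stood far outside the rest and was chosen after it was seen. A_30_P01026656, an R probe of chr8:93337794-93348869, read 5.88 in 979B1 and between -4.95 and -3.01 in the other 11 clones. In 979B1 the other R probe of that region detected on all arrays, A_30_P01026518, read -3.33, within its range of -4.32 to -2.93 in the other clones. The rise of 979B1 was therefore read by 1 probe and not by its neighbour.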

How the data were processed

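The authors hybridised total RNA of 12 clones to one-colour arrays and scanned them, and Feature Extraction 10.7.3.1 made a table per array. The deposited processed intensity was used, corrected for background by the authors' software but not normalized between arrays. Control and outlier spots were left out, spots of a probe were averaged, log2 was taken, and each array was shifted to put its 75th percentile at 0. The authors' deposited log2 values, with that percentile at 0, had a Pearson r of 1 with these and were an alternative.

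Genotypes, 4 clone series and their contrasts were compared with limma 3.58.1 (R 4.3.3, lmFit and eBayes) over all 55681 probes with Benjamini-Hochberg adjustment, and the fits were tested on simulated data. The prior degrees of freedom were 2.04. Clones were grouped by the labels. Python 3.11.15, numpy 2.4.6, pandas 2.3.3 and matplotlib 3.10.9 served for descriptions and plots.

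Alternatives were the methods' t-test, normexp background correction (offset 50), a percentile taken over detected probes, quantile normalization, filters on dim probes, trend and robust estimation in limma, slide or series as a block, other thresholds, and leaving out each clone. The number of arrays and signal over background limit the precision. Probes named were: any past both thresholds (none), the 10 with the smallest F test p detected on 3 or more arrays, the 8 highest and 4 lowest in 981E5, the 8 detected by whole series, the first 6 regions with both letters detected on all arrays, the 6 regions with most such probes, and members of the study's list (none). Any other probe is marked in the text as picked after a look at its values. Members and lists were chosen with earlier results of these data known. Chromosomes and order of gene probes came from a RefSeq table of GRCm38.p6, which matched 27235 accessions; region positions are mm9. The level of the targeted gene is not reported here.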

Additional observations from a re-analysis of the deposited data

Results flagged for a closer look

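Values far from the other clones of their genotype are given here. A sample stood out where its gap to the nearest of the 6 clones, divided by their range, exceeded the 95% critical value of Dixon's test. Chance flags about 5% of such sets. Of 85 sets of 6 clones, 9 stood out, which is a description and no test, since the sets share clones and regions and many were chosen for a high or low value in 981E5.

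Clone 981E5 gave 6 of the 9 among the Aid-/- clones, and its rise on chromosome 8 was known when the probes were chosen. Its median difference over the 365 chromosome 8 probes was 0.31, with the other 5 between -0.11 and 0.02. A_30_P01025166 (-0.49), A_30_P01030794 (-0.086) and A_30_P01032206 (-0.50), all of chr8:72076364-72077503, A_30_P01030249 (-1.63) and, in the low direction, A_30_P01029524 (-3.90) made up the rest. Clone 967B4 gave 2 among the Aid+/+ clones, A_30_P01025936 (-1.17) and A_30_P01024275 (-1.47), at the locus where 981E5 was also high. Clone 979B1 gave A_30_P01026656 (5.88, with the other Aid+/+ clones between -4.61 and -3.08).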

How the results depend on the processing

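The count of chromosome 8 probes past both genotype thresholds was 0 under every setting tried except slide as a fixed block. That block gave 43, with 1185 over the whole array, and rests on slide 3 alone. Without each clone in turn the count ranged from 0 to 0. The count in the F test among series was 55, and it ranged from 21 to 92 without each clone in turn and was 5 at an adjusted p under 0.01. Under the other scalings, filters and estimates it stayed within 1.5 times. The median difference of 981E5 was 0.31, 0.21 with normexp, 0.37 with the percentile over detected probes, 0.14 over all 1021 probes, 0.20 with 1 value per region and letter and 0.16 with 1 value per locus, which was chosen after seeing the data; with each other clone left out it moved by less than the spread between clones. It was positive throughout. The cause of these moves was not tested.

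Of 5 probes named for genotype, 4 of 114 alternative values passed the adjusted p where the main one did not, and none changed direction. Of 17 probes named for series, 53 of 312 alternative values lost the adjusted p and 2 gained it. No paired analysis was possible because the labels number no single clones in pairs across the genotypes. The series 979B and 979F share a number in their names, and between them 4 probes differed at an adjusted p under 0.05. Signal over background also limits the results, since 378 of 1021 probes were detected on no array.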
